A study of Mus musculus with 14 samples.

Results

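The collagen chains are the gene family behind most of the fibrous and sheet-like matrix of a tumour, and they were followed here through T cell therapy of a mouse melanoma. Members were all genes whose name on the array is Col, a number, the letter a and a number, and each was represented by its probe with the highest mean signal. There were 40 such genes with 81 probes, among 28478 gene names with 41174 probes. RNA came from tumours of B16F10, a melanoma cell line, grown in C57BL/6 mice and read on 14 Agilent 1-colour arrays. Untreated tumours and tumours of mice given in vitro activated, gp100-specific CD90.1+ cytotoxic T lymphocytes (CTLs) were taken on days 1, 3, 5 and 7 after transfer. Mice of the remaining arms received the same CTLs with an anti-IFNg antibody, which blocks interferon gamma, or with control Rat IgG, and their tumours were taken on days 3, 5 and 7. Each untreated or CTL array held the pooled RNA of 4 tumours, and each array of the antibody arms that of 3 tumours. The CTLs recognise a melanocyte protein, the labels name no deletion or transgene in the hosts, and the tumour is 1 transplanted line.

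Collagens are built from chains that wind into a triple helix in the endoplasmic reticulum, after hydroxylation of their prolines and lysines. Fibrillar types such as I and III assemble into banded fibres made mainly by fibroblasts, type IV forms the sheet of basement membranes under endothelium and around pericytes, and types II, IX and XI make up the fibrils of cartilage. FACIT collagens sit on fibril surfaces, multiplexins lie in basement membrane zones, and a few types span the plasma membrane. Interferon gamma is known to lower transcription of type I collagen in cultured fibroblasts.

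Every slide held 1 day, and each arm had the same position on every slide, so array position and arm cannot be told apart. The share of spots above background ran from 48.9% to 59.7% per array, and the 75th percentile of signal from 301 to 536. All 7 melanocyte markers were measured in every arm, with sums between 1300 and 1830 times the 75th percentile, and none of the 7 passed the test in CTL against untreated or antibody against IgG tumours. With 1 array per arm and day, the days served as replicates (n = 3 days for each comparison of days 3, 5 and 7). In bulk RNA, fewer cells of a type and less RNA per cell cannot be told apart.

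The start regions of Col4a1 and Col4a2 are shown because these chains had the steadiest change of the family. They encode the chains that join in the common type IV trimer. Both windows run from 250 bases before to 50 bases after the start in RefSeq on GRCm38.p6, 5′ to 3′ along each gene, and the capitals mark the 78 bases that the windows share on opposite strands. Col4a1 lies at chr8:11312777-11313076 on the minus strand and Col4a2 at chr8:11312555-11312854 on the plus strand, with start sites 21 bases apart.
Col4a1: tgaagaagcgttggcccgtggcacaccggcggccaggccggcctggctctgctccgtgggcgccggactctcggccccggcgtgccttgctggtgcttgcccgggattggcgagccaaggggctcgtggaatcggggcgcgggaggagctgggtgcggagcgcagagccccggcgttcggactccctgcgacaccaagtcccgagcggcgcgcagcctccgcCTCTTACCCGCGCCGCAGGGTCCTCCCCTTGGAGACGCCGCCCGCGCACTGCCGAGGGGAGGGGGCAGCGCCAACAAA
Col4a2: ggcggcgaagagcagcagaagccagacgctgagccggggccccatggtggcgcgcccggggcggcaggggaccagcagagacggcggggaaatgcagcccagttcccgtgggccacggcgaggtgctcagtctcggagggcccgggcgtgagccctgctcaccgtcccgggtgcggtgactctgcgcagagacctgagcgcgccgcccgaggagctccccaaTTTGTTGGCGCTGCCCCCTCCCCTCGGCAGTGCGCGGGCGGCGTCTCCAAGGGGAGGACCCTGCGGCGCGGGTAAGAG
Of the 40 members, 32 matched a RefSeq start region, with 35 windows in all. The GC box GGGCGG stood on either strand in 20 of these 35 windows and in 35.7% of all 32851 windows of the same length. The CCAAT box CCAAT stood in 12 of 35 and in 37.4% of all. The interferon motif TTCNNNGAA (GAS) stood in 1 of 35, that of Col28a1, and in 8.30% of all windows. The Col4a1 window held 1 CCAAT and 1 GGGCGG match, and the Col4a2 window 1 and 3. A match describes letters only.

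Levels are given as log2 of the processed signal relative to the array's 75th percentile, so 0 stands for a spot as bright as that percentile, and levels of different probes are not compared. A gene counted as measured if its probe passed the scanner's background test (well above background) on 3 or more arrays. This held for 30 of 40 collagens, among 17043 genes tested, and 18 of them were above background on all 14 arrays. The probes used for Col4a3, Col8a2, Col17a1, Col22a1, Col27a1 and Col28a1 were not well above background on any array. Those of Col10a1, Col12a1, Col19a1 and Col23a1 were so on 1 or 2, as was a further Col22a1 probe on 2. The closest members on either side of the limit were Col9a3 with 5 arrays and Col19a1 with 2.

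In tumours of mice given CTLs, 12 of 30 measured collagens were lower than in untreated tumours over days 3, 5 and 7, and 0 were higher. They included 4 chains of cartilage, Col2a1, Col9a1, Col9a2 and Col11a2, and both main chains of type IV. The major fibrillar genes Col1a1, Col1a2 and Col3a1, which make up the bulk of interstitial collagen, did not pass the test. Each log2 change came from limma fitted on all genes with arm and day as terms and a two-sided threshold of 0.05 after Benjamini-Hochberg adjustment. Among all genes, 31.5% passed, 21.4% lower and 10.1% higher, against 40.0% of the collagens. The median log2 change of the 30 was -0.47, beside -0.10 over all genes. That direction turned with another background correction (normexp), which gave a collagen median of 0.22 and 5 collagens passing, a count not set beside all genes. Without day 5 only 3 collagens passed and without day 3 only 6, while 661 and 1104 of all genes passed.

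**Figure D1:**
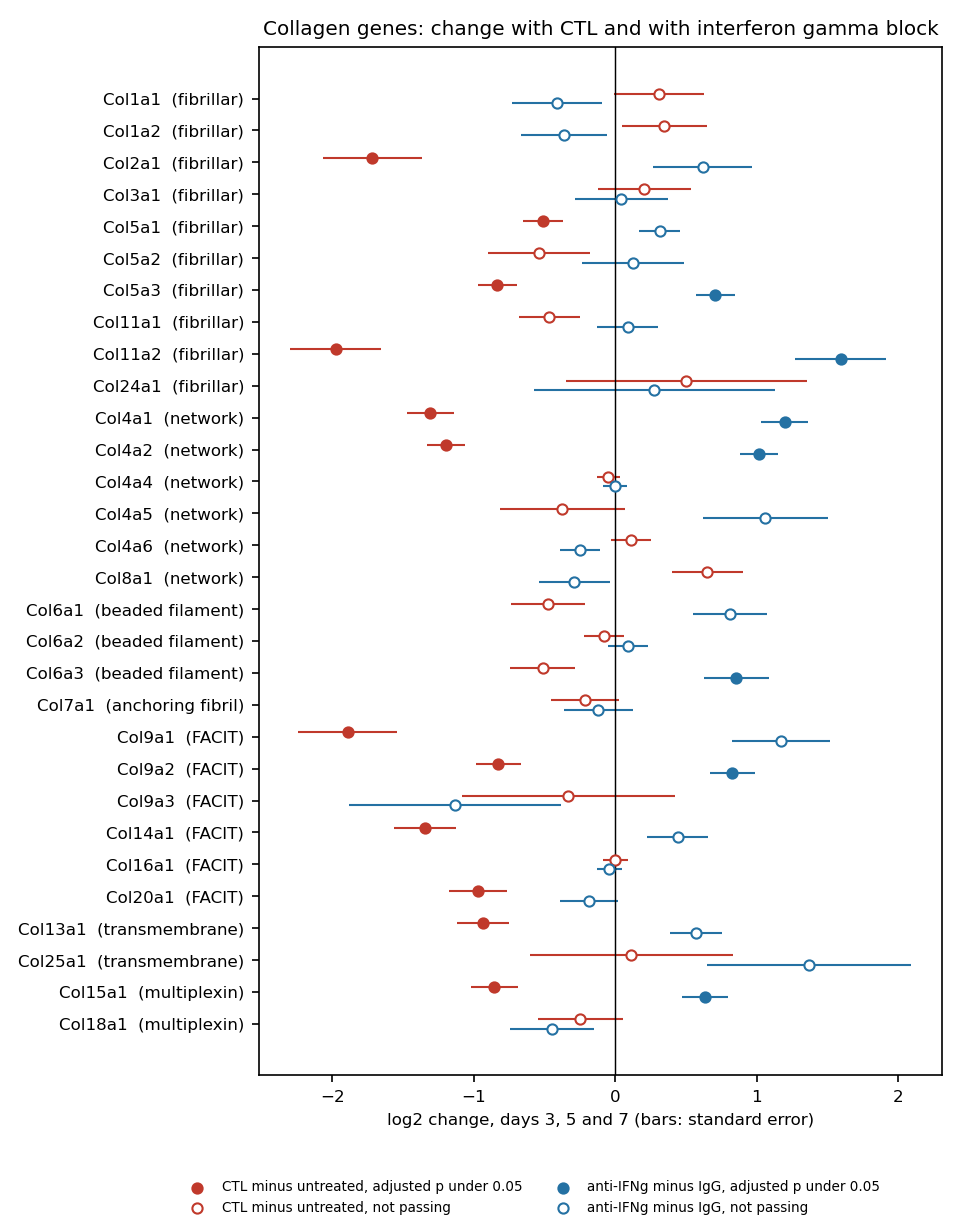
Log2 change (horizontal axis) of the 30 measured collagen genes, grouped by structural class, for CTL minus untreated tumours and for anti-IFNg minus IgG tumours given CTLs; bars are standard errors and filled points passed limma at an adjusted p under 0.05. The 12 filled CTL points lie below 0 and the 7 filled antibody points above 0. With normexp background correction Col5a1, Col13a1, Col14a1, Col15a1 and Col20a1 moved to the other side of 0 in the CTL comparison. Col13a1 was measured mainly in arms where it was higher, so its filled point is not read as a result.

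The ubiquitous type IV chains fell to below the untreated level on each of the 3 later days. Col4a1 (probe at chr8:11198981-11199040, build mm8) stood at 1.37, 1.81, 1.71 and 1.88 in untreated tumours of days 1, 3, 5 and 7. With CTLs it stood at 1.37, 0.66, 0.40 and 0.41. The arms were level on day 1 and did not overlap afterwards. It fell by 1.31 ± 0.17 (SE) on the log2 scale, a 2.48-fold difference (limma adjusted p = 0.00146). Col4a2 (chr8:11448812-11448871) stood at 0.67, 1.15, 0.80 and 1.02 in untreated tumours and at 0.56, -0.04, -0.44 and -0.15 with CTLs. It fell by 1.20 ± 0.13, or 2.30-fold (limma adjusted p = 0.000845). The same-day differences of Col4a2 on days 3, 5 and 7 lay between -1.24 and -1.16. Both kept their call under all 12 alternatives tried. A further probe of each gene gave mean differences of -1.02 for Col4a1 and -1.17 for Col4a2.

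The remaining type IV chains, which form specialised basement membranes such as those of kidney and lung, gave no call. Col4a5 (X chromosome) lay between -3.80 and -3.31 in untreated tumours and between -4.74 and -2.79 with CTLs, so the arms overlapped. Its log2 change was -0.37 ± 0.45 (limma adjusted p = 0.545). Col4a6, its neighbour on the X chromosome, changed by 0.11 ± 0.14 (limma adjusted p = 0.572). Col4a4 changed by -0.05 ± 0.08 with the probe used (limma adjusted p = 0.675), but its other probe, above background on 13 arrays, had a mean difference of -1.67. The Col4a4 probes therefore disagree, and the gene's change is uncertain. Col8a1, a short network chain of vessel walls and of Descemet's membrane, stood at -0.75, -0.98 and 0.11 on days 3, 5 and 7 in untreated tumours and at 0.01, 0.29 and 0.04 with CTLs. Its log2 change of 0.65 ± 0.25 was the highest of the family and did not pass (limma adjusted p = 0.0823).

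The type I and type III chains varied more from day to day than between these arms. Col1a1 (chr11:94767851-94767910) stood at 0.39, 0.13, 0.20 and 1.15 in untreated tumours and at 0.75, 0.25, 1.15 and 1.02 with CTLs. Its log2 change over days 3 to 7 was 0.31 ± 0.32, with a 95% interval from -0.42 to 1.04 (limma adjusted p = 0.479). Col1a2 (chr6:4490619-4490678), which encodes the partner chain in the type I trimer, stood at 1.67, 1.62, 1.13 and 2.42 without CTLs and at 2.05, 1.66, 2.26 and 2.29 with them. Its change was 0.35 ± 0.30, with an interval from -0.35 to 1.04 (limma adjusted p = 0.406). Col3a1 (chr1:45293290-45293349), the type III chain of reticular fibres, stood at 0.09, -0.24, -0.59 and 0.78 in untreated tumours and at 0.30, -0.27, 0.38 and 0.45 with CTLs. The change was 0.21 ± 0.33, from -0.55 to 0.96 (limma adjusted p = 0.652). In each of the 3 genes the CTL tumours were higher on day 5 by about 1 log2 unit (0.95, 1.13 and 0.97) and lower on day 7 by 0.14, 0.13 and 0.32. In this comparison the intervals exclude a fall of the size seen in Col4a1. In IgG tumours against untreated ones the intervals were wider in reach. They ran from -1.55 to -0.09 for Col1a1, -1.14 to 0.25 for Col1a2 and -1.79 to -0.28 for Col3a1. Those of Col1a1 and Col3a1 include -1.31, the Col4a1 change with CTLs alone.

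**Figure D2:**
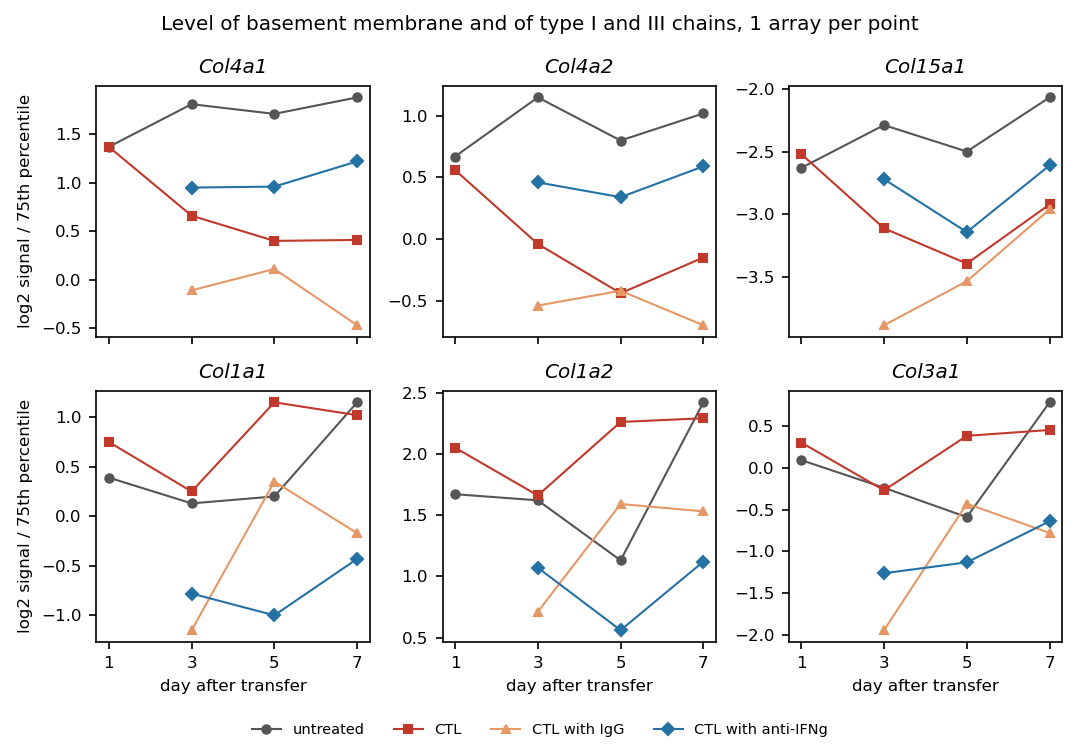
Log2 level relative to the array's 75th percentile (vertical axis) against day after transfer for Col4a1, Col4a2, Col15a1, Col1a1, Col1a2 and Col3a1, with 1 array per point and 1 line per arm. From day 3 the Col4a1 and Col4a2 lines of untreated tumours lie on top, those with the antibody in between and those of CTL and IgG tumours below, whereas the untreated and CTL lines of Col1a1, Col1a2 and Col3a1 cross; the Col15a1 difference turned in sign with normexp.

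Type V chains, which nucleate and limit the width of type I fibres, were lower in 2 of 3 genes. Col5a3 (chr9:20520550-20520609) stood at -0.02, 0.37, -0.07 and 0.12 in untreated tumours and at 0.01, -0.77, -0.78 and -0.53 with CTLs. The arms separated from day 3 on, and the log2 change was -0.83 ± 0.14 (limma adjusted p = 0.00436). Col5a1 (chr2:27859381-27859440) stood at -1.66, -1.19, -1.15 and -1.20 without CTLs and at -1.32, -1.85, -1.79 and -1.44 with them. It fell by 0.51 ± 0.14 (limma adjusted p = 0.0295), but its value was 0.01 with normexp, the call held under 4 of 12 alternatives, and its other probe had a mean difference of 0.06. Col5a2, above background on 6 arrays, changed by -0.54 ± 0.36 (limma adjusted p = 0.285).

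Of the chains best known from cartilage, Col2a1, Col9a1, Col9a2 and Col11a2 fell. Over the alternative settings the log2 change ran from -2.28 to -0.77 for Col11a2, from -2.34 to -0.62 for Col9a1 and from -2.42 to -1.18 for Col2a1. Those ranges overlapped that of Col4a1, from -1.39 to -0.98. Col2a1 (chr15:97804108-97804167), the main cartilage fibril chain, stood at -0.70, 1.62, 1.41 and 0.85 in untreated tumours and at -0.28, -0.73, 0.19 and -0.73 with CTLs. The arms did not overlap on days 3, 5 and 7, although the untreated tumour of day 1 lay among the CTL values. It fell by 1.72 ± 0.35, or 3.29-fold (limma adjusted p = 0.00962), and its other measured probe had a mean difference of -3.13. Col11a2 (chr17:33676507-33676566), a chain of the thin fibrils that carry type II, stood at 0.09, 0.70, 0.16 and 0.52 without CTLs and at -0.05, -0.67, -1.60 and -2.29 with them. Its fall of 1.98 ± 0.32 was 3.94-fold (limma adjusted p = 0.0041). The other Col11a2 probe, above background on all 14 arrays, had a mean difference of 0.43, so the probes of this gene disagree in direction. Col9a1 (chr1:24206120-24206179), a type IX chain that decorates cartilage fibrils, stood at -1.28, -1.38, -0.68 and -1.55 in untreated tumours. With CTLs it stood at -1.25, -2.39, -3.43 and -3.48, below every untreated value from day 3 on. The change was -1.89 ± 0.35, or 3.71-fold (limma adjusted p = 0.0065). Col9a2 (chr4:120552728-120552787), its partner, stood at -0.73, -0.81, -1.08 and -0.92 without CTLs and at -0.72, -2.11, -1.58 and -1.61 with them, a fall of 0.83 ± 0.16 (limma adjusted p = 0.00768). Col9a3 and Col11a1 did not pass, with changes of -0.33 ± 0.75 and -0.47 ± 0.22 (limma adjusted p = 0.756 and 0.133).

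**Figure D3:**
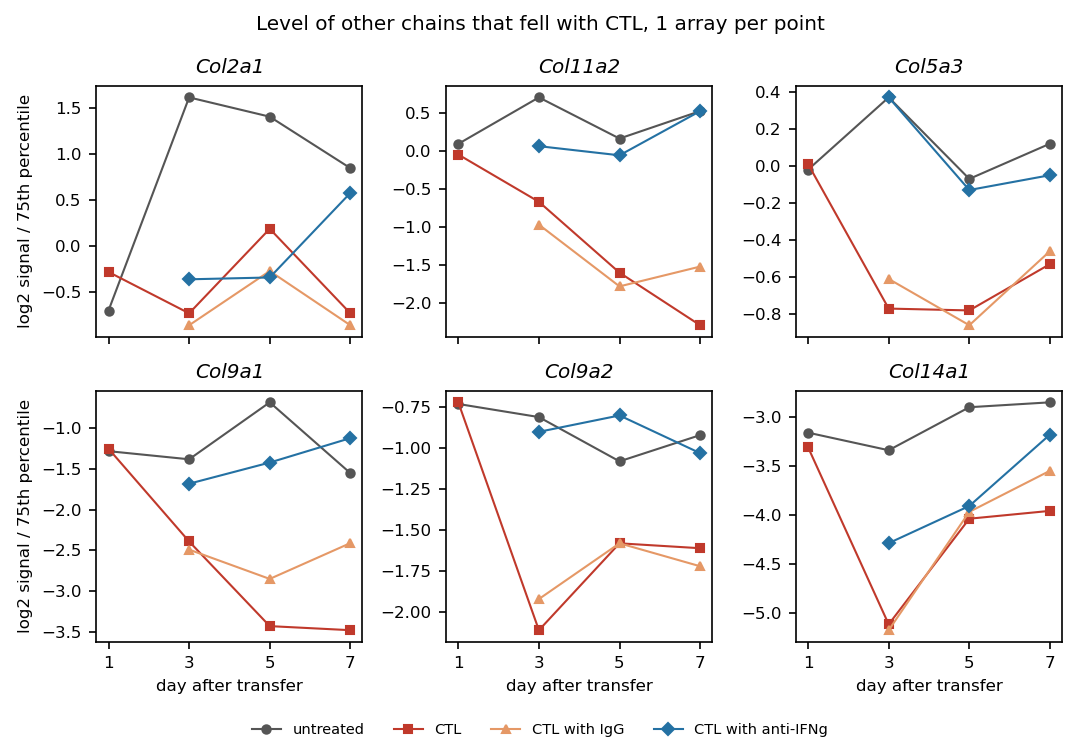
Log2 level relative to the array's 75th percentile (vertical axis) against day after transfer for Col2a1, Col11a2, Col5a3, Col9a1, Col9a2 and Col14a1, with 1 array per point and 1 line per arm. On days 3, 5 and 7 every CTL point lies below every untreated point in all 6 genes, and the antibody points of Col9a2 and Col11a2 lie near the untreated ones. Col14a1 was well above background on only 1 CTL array of these days, and its difference turned in sign with normexp.

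Among the remaining classes, 4 genes passed as lower, each with a change of sign under normexp. Col14a1 (chr15:55350660-55350719), a FACIT chain of fibril surfaces, stood at -3.16, -3.34, -2.90 and -2.85 in untreated tumours and at -3.31, -5.12, -4.04 and -3.96 with CTLs. It fell by 1.34 ± 0.22 (limma adjusted p = 0.00402) and was 0.40 with normexp. On days 3, 5 and 7 it was well above background on only 1 CTL array, so the size of its fall is uncertain. Col15a1 (chr4:47333331-47333390), a multiplexin of vascular and muscle basement membranes, stood at -2.63, -2.29, -2.50 and -2.07 without CTLs and at -2.52, -3.11, -3.39 and -2.92 with them. It fell by 0.86 ± 0.17 (limma adjusted p = 0.00783) and was 0.22 with normexp. Col13a1 (chr10:61233886-61233945), a transmembrane chain found at cell adhesions, lay between -3.40 and -3.21 in untreated tumours and was not well above background in CTL tumours after day 1. Its log2 change was -0.93 ± 0.18, or 1.91-fold (limma adjusted p = 0.00831), and its normexp value was 0.47. The change was taken against signals not well above background, so its size is uncertain. It passed the filter on dim probes mainly through the arms where it was higher, so its own call is not read as a result. The counts of collagens that were lower with CTLs include it. Col20a1 (chr2:180946773-180946832), a little-studied FACIT chain, stood at -2.86, -2.12, -2.64 and -2.15 without CTLs and at -3.25, -3.64, -2.93 and -3.25 with them, a fall of 0.97 ± 0.21 (limma adjusted p = 0.011) that was 0.22 with normexp.

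Type VI chains, which form beaded filaments around cells, did not pass in CTL tumours. Col6a3 stood at -0.82, -0.57, -0.70 and -0.07 in untreated tumours and at -0.54, -1.05, -0.94 and -0.89 with CTLs. Its log2 change was -0.51 ± 0.23 (limma adjusted p = 0.122), although the arms did not overlap on days 3, 5 and 7, as for 13 of 30 collagens and 40.8% of all genes. Col6a1 and Col6a2 changed by -0.47 ± 0.26 and -0.08 ± 0.14 (limma adjusted p = 0.198 and 0.688). Col18a1, the multiplexin that releases endostatin, stood at 0.71, 1.49, 1.91 and 1.92 without CTLs and at 0.70, 1.87, 1.73 and 0.96 with them. The change of -0.25 ± 0.30 did not pass (limma adjusted p = 0.55), and both Col18a1 probes gave like values (-0.25 and -0.33). Col7a1, the anchoring fibril of skin, and Col16a1, a FACIT chain, changed by -0.21 ± 0.24 and -0.00 ± 0.09. Col24a1 and Col25a1, above background on 8 and 10 arrays, changed by 0.50 ± 0.85 and 0.12 ± 0.72.

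Blocking interferon gamma under CTLs was set against the IgG control, in arrays that neither arm of the first comparison used. Of 30 collagens, 7 were higher with the antibody and 0 lower, or 23.3%, beside 12.6% of all genes (6.61% higher and 5.94% lower). The median log2 change was 0.30, beside 0.06 over all genes. The 7 were Col4a1, Col4a2, Col5a3, Col6a3, Col9a2, Col11a2 and Col15a1. Of these, 6 were also among those that fell with CTLs, which is 6 of the 7 and 6 of the 12, and Col6a3 was the exception. Over all genes the same overlap held 931 genes, which is 82.7% of those higher with the antibody and 25.6% of those lower with CTLs. All 7 calls were lost without day 3, without day 5 and when CTL day 1 shared the CTL effect of the later days, settings under which 399, 50 and 2 of all genes passed.

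Col4a1 stood at 0.95, 0.96 and 1.22 on days 3, 5 and 7 with the antibody and at -0.11, 0.11 and -0.47 with IgG. The arms lay apart on each day, and the gene was 2.30-fold higher with the antibody (log2 1.20 ± 0.17, limma adjusted p = 0.00465). Col4a2 stood at 0.46, 0.34 and 0.59 against -0.54, -0.42 and -0.70, a rise of 1.02 ± 0.13 (limma adjusted p = 0.00401). Col11a2 had the largest rise, at 0.06, -0.06 and 0.52 with the antibody and -0.97, -1.78 and -1.52 with IgG. It came to 1.60 ± 0.32, or 3.02-fold (limma adjusted p = 0.0173), while the gene's other probe had a mean difference of -0.27. Col9a2 stood at -0.90, -0.80 and -1.03 against -1.92, -1.58 and -1.72, higher by 0.83 ± 0.16 (limma adjusted p = 0.0142). Col5a3 stood at 0.37, -0.13 and -0.05 against -0.61, -0.86 and -0.46, higher by 0.71 ± 0.14 (limma adjusted p = 0.0154). In both genes every antibody value lay above every IgG value. Col6a3 stood at -1.53, -1.58 and -0.89 with the antibody and at -2.51, -1.74 and -2.32 with IgG, higher by 0.86 ± 0.23 (limma adjusted p = 0.0473). Col15a1 stood at -2.72, -3.14 and -2.61 against -3.88, -3.53 and -2.96. Its arms overlapped across days, though the antibody was higher on each day, and the difference was 0.64 ± 0.17 (limma adjusted p = 0.0426).

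Other collagens did not pass in this comparison. Col9a1 was higher with the antibody on each day, at -1.68, -1.42 and -1.12 against -2.49, -2.85 and -2.41, with a log2 difference of 1.17 ± 0.35 (limma adjusted p = 0.0631). Col6a1 and Col13a1 differed by 0.81 ± 0.26 and 0.57 ± 0.18 (limma adjusted p = 0.0817 and 0.0803). Col2a1 stood at -0.36, -0.34 and 0.58 with the antibody and at -0.86, -0.27 and -0.86 with IgG, and the difference was 0.62 ± 0.35 (limma adjusted p = 0.272). Col14a1 and Col20a1, which were lower with CTLs, differed by 0.44 ± 0.22 and -0.19 ± 0.21 (limma adjusted p = 0.217 and 0.571). Col1a1 stood at -0.78, -1.0 and -0.43 with the antibody and at -1.15, 0.35 and -0.17 with IgG. The difference was -0.41 ± 0.32, with an interval from -1.14 to 0.32 (limma adjusted p = 0.415). A further Col1a1 probe, above background on 13 arrays, had a mean difference of -1.46. Col1a2 and Col3a1 differed by -0.36 ± 0.30 and 0.04 ± 0.33 (limma adjusted p = 0.449 and 0.942).

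The IgG arm was also set against untreated tumours, which served as controls for the CTL arm too, so these values are not independent of those above. In IgG tumours 14 of 30 collagens were lower and 0 higher, or 46.7%, beside 18.7% of all genes (11.2% lower and 7.50% higher). The median log2 change was -0.81, beside -0.10 over all genes. With normexp 6 collagens passed, a count not set beside all genes. Col4a1 was lower by 1.96 ± 0.17 on the log2 scale and Col4a2 by 1.54 ± 0.13 (limma adjusted p = 0.000309 and 0.00033). All 3 measured type VI genes passed here. Col6a3 had a change of -1.74 ± 0.23 (limma adjusted p = 0.00187), Col6a1 of -1.39 ± 0.26 (limma adjusted p = 0.00916) and Col6a2 of -0.51 ± 0.14 (limma adjusted p = 0.0374). Col3a1 and Col1a1 lay lower by 1.03 ± 0.33 and 0.82 ± 0.32 without passing (limma adjusted p = 0.0624 and 0.114). The CTL and IgG arms, which differ by the injection of IgG and by 4 against 3 pooled tumours, differed in 0 of 30 collagens and in 0.0117% of all genes by limma. At an unadjusted p under 0.05 there were 13 of 30 collagens, beside 18.8% of all genes. The log2 difference, IgG minus CTL alone, was -1.24 ± 0.33 for Col3a1, -1.13 ± 0.32 for Col1a1, -1.23 ± 0.23 for Col6a3 and -1.26 ± 0.25 for Col8a1 (limma adjusted p between 0.191 and 0.196). For Col4a1 it was -0.65 ± 0.17.

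Tumours given CTLs with the antibody were compared with untreated ones to see how far the levels lay from those without transferred CTLs. By limma 0 of 30 collagens passed, beside 0.158% of all genes, and 17 had an unadjusted p under 0.05, beside 6.91% of all genes. The median log2 change was -0.53, beside -0.03 over all genes, and 22 of 30 collagens were lower on all 3 days, beside 15.3% of all genes. Col9a2, Col5a3 and Col9a1 had changes of 0.03 ± 0.16, -0.08 ± 0.14 and -0.20 ± 0.35. Col4a1 and Col4a2 had changes of -0.76 ± 0.17 and -0.53 ± 0.13 (limma adjusted p = 0.275 and 0.389), so their antibody levels lay between the untreated and the IgG ones on each day. Col1a1 had -1.23 ± 0.32 and Col2a1 -1.34 ± 0.35 (limma adjusted p = 0.41 and 0.416). On days 3, 5 and 7 all Col1a1 values with the antibody lay below all untreated ones.

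On day 1 the CTL and untreated tumours were 1 array each, so their difference has no replicate check. It was -0.00 for Col4a1, -0.12 for Col4a2, 0.04 for Col9a1, 0.02 for Col9a2, -0.14 for Col11a2 and 0.42 for Col2a1. The change of the CTL effect from day 1 to the later days passed limma for 0 of 30 collagens, beside 1.02% of all genes, and 10 had an unadjusted p under 0.05, beside 14.5% of all genes. For Col4a1 that change was -1.30 ± 0.33 and for Col4a2 -1.08 ± 0.27 (limma adjusted p = 0.139 and 0.129).

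Enzymes that modify and fold collagen chains were measured in 18 of 20 cases. With CTLs 11 fell and 0 rose, beside 21.4% lower and 10.1% higher among all genes, and 8 fell with normexp. The median log2 change was -0.49, beside -0.10 over all genes. With the antibody against IgG 10 rose and 0 fell, beside 6.61% higher and 5.94% lower among all genes, but 1 rose with normexp. The median was 0.48, beside 0.06 over all genes. Plod2, the lysyl hydroxylase that prepares telopeptides for crosslinks, changed by -0.82 ± 0.10 and 0.82 ± 0.10 (limma adjusted p = 0.00142 and 0.00364). Colgalt1, which adds galactose to hydroxylysine, changed by -0.63 ± 0.09 and 0.62 ± 0.09 (limma adjusted p = 0.00237 and 0.00537). P4hb, the shared subunit of prolyl 4-hydroxylase, and Crtap, part of the prolyl 3-hydroxylation complex, fell by 0.49 ± 0.10 and 0.55 ± 0.10 with CTLs and were higher by 0.42 ± 0.10 and 0.50 ± 0.10 with the antibody. P3h2, which hydroxylates prolines of type IV collagen, changed by -1.36 ± 0.21 and 0.89 ± 0.21 (limma adjusted p = 0.00341 and 0.0312), with a CTL value of -0.10 under normexp. Serpinh1, the collagen chaperone Hsp47, had -0.32 ± 0.12 with CTLs (limma adjusted p = 0.0794) and rose by 0.49 ± 0.12 with the antibody (limma adjusted p = 0.0371). P4ha1 and Plod3 passed in neither.

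**Figure D4:**
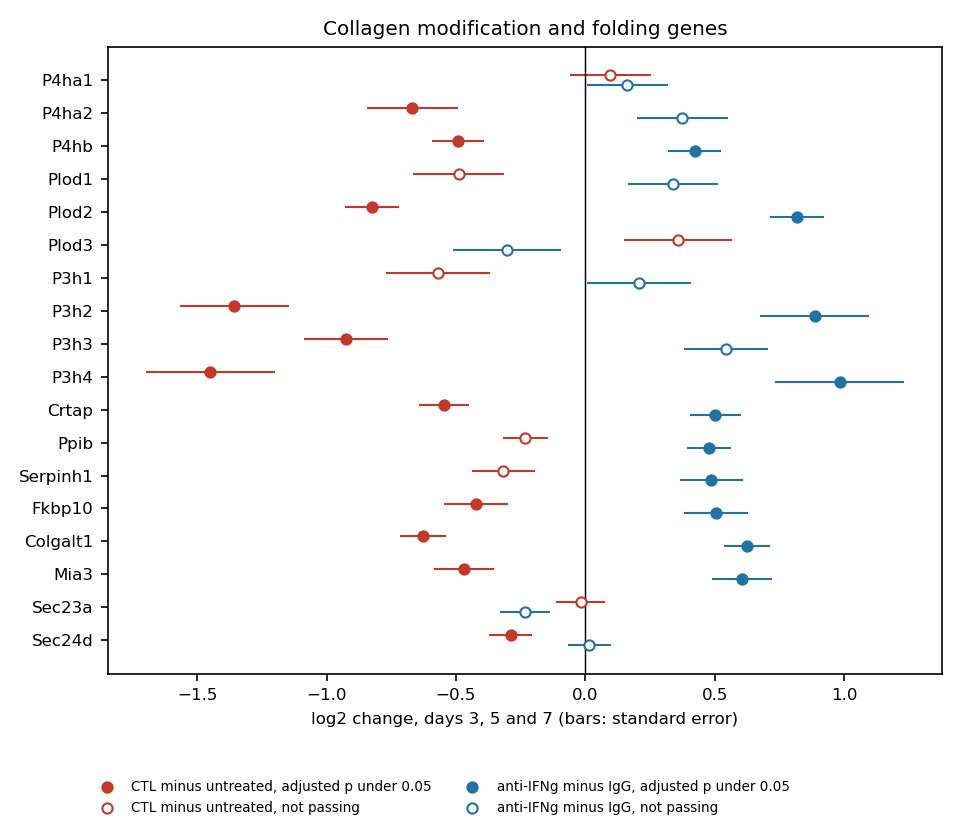
Log2 change (horizontal axis) of the 18 measured genes of collagen modification and folding, for CTL minus untreated tumours and for anti-IFNg minus IgG tumours given CTLs; bars are standard errors and filled points passed limma at an adjusted p under 0.05. The 11 filled CTL points lie below 0 and the 10 filled antibody points above 0; with normexp the P3h4 value with CTLs turned to 0.57.

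Genes that act on secreted collagen were called in both directions. With CTLs 10.1% of all genes rose and 21.4% fell. Of 9 measured among 14 for processing and crosslinking, 2 rose and 2 fell with CTLs, against 1 and 0 with normexp. Tgm2, a transglutaminase that crosslinks matrix proteins, rose by 3.43 ± 0.31 and was lower by 3.39 ± 0.31 with the antibody (limma adjusted p = 0.000332 and 0.00128). Its CTL call held with normexp. Pcolce, which enhances cleavage of the C-propeptide, changed by 0.67 ± 0.10 and -0.60 ± 0.10, and its CTL value with normexp was 0.36, which did not pass. Loxl3, a lysyl oxidase, had a change of -0.68 ± 0.15 with CTLs that turned to 0.06 with normexp. Of 7 measured receptors among 9, 2 rose and 3 fell, against 1 and 1 with normexp. Lair1, an inhibitory collagen receptor of leukocytes, rose by 3.01 ± 0.58 and the integrin chain Itgb1 fell by 0.51 ± 0.10, and both calls held with normexp. The discoidin receptor Ddr1 changed by 0.51 ± 0.12, which was 0.23 with normexp and did not pass, and Itga1 by -0.58 ± 0.14, which turned to 0.18. Of 5 measured among 7 for breakdown, the collagenase Mmp13 rose by 3.05 ± 0.32, and by 1.75 with normexp, where its call held. Mmp13 was well above background on only 1 untreated array, so the size of its rise is uncertain. The gelatinase Mmp2 had a change of -1.13 ± 0.26 that turned to 0.19 with normexp.

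Some genes of the pathway and marker lists were measured mainly in the arms where they were high. The counts and medians of the lists include them, but their own calls are not read as a result. P3h4, of the modification list, was well above background in 6 arrays, 3 untreated, 2 with the antibody and 1 with CTLs alone. It stood at 0.57 with CTLs under normexp. Mmp8, a collagenase, was well above background in 6 arrays, 3 with CTLs alone and 3 with IgG. Pcolce2, of the processing list, was so in 6 arrays, and Itga10, an integrin chain, and the cartilage gene Matn3 in 4 each, mostly of untreated tumours. With normexp Pcolce2 stood at 0.66, Itga10 at 0.33 and Matn3 at 0.44, above 0 where the other correction had them lower. With CTLs, among genes well above background on 7 or more arrays, 1 of 4 rose and 1 fell for breakdown. For processing 2 of 8 rose and 1 fell, and for receptors 2 of 5 rose and 2 fell. Among all genes kept with 3 or more arrays, 10.1% rose and 21.4% fell. The share under the filter of 7 arrays is not given here, so these small counts are not read as a result.

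Matrix partners of collagen were measured in 13 of 16 cases. With CTLs 7 fell and 1 rose, against 3 and 2 with normexp and beside 21.4% lower and 10.1% higher among all genes. Those that fell were Fbln1 and 6 laminin or nidogen genes of the basement membrane. Nid2 had a change of -1.58 ± 0.16, Lamc1 of -0.63 ± 0.10, Lamb1 of -0.64 ± 0.13 and Nid1 of -0.41 ± 0.13. With normexp Lamc1 kept its call at -0.89, while Nid2 at -0.20, Lamb1 at -0.16 and Nid1 at -0.15 did not pass. With the antibody 5 rose, beside 6.61% of all genes. Among the 5 were Nid2 with 1.47 ± 0.16 and Lamc1 with 0.64 ± 0.10 (limma adjusted p = 0.00192 and 0.0077). With normexp 1 of the list rose, Fbln1 by 0.87, and Nid2 at 0.62 and Lamc1 at 0.63 did not pass. Dcn, the small proteoglycan decorin that binds type I fibrils, rose by 2.13 ± 0.58 with CTLs (limma adjusted p = 0.0269). Of the 12 measured genes of the TGF-beta pathway, which drives collagen transcription in fibroblasts, 3 passed with CTLs, beside 31.5% of all genes. Tgfbi, a matrix protein induced by TGF-beta, rose by 2.78 ± 0.25 and kept its call with normexp. Tgfb3 and Tgfbr1 fell by 0.52 ± 0.13 and 0.51 ± 0.09, and at -0.45 and -0.22 with normexp did not pass.

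Markers of cells that could carry these collagens moved with some of them. Among all genes 21.4% fell and 10.1% rose with CTLs, and 6.61% rose with the antibody. Of 9 measured endothelial markers, among 10, 6 fell with CTLs and 7 rose with the antibody. Their summed level ranged from 7.66 to 11 times the 75th percentile in untreated tumours, from 5.01 to 5.94 with CTLs, from 7.80 to 8.39 with the antibody and from 4.05 to 4.99 with IgG over days 3, 5 and 7. The untreated and CTL ranges did not overlap, and Tie1 passed the background test on none of the 14 arrays. Cdh5 was well above background on 0 IgG arrays, so its antibody difference was taken against a signal near background. With normexp 2 endothelial markers fell and 1 rose with CTLs, with a median of 0.16 in place of -0.91, and 1 rose with the antibody, with a median of 0.41 in place of 0.93. Of 7 pericyte and smooth muscle markers, 3 fell and 1 rose with CTLs. Cspg4, the pericyte proteoglycan NG2, changed by -1.56 ± 0.12 with CTLs and 1.60 ± 0.12 with the antibody. The marker that rose was Tagln, at 3.16, 4.45 and 3.48 on days 3, 5 and 7 with CTLs. It stood at 1.86, 2.68 and 3.22 in untreated tumours. With normexp 0 of the 7 passed with CTLs, their median was 0.15 in place of -0.60, and Cspg4 stood at -0.54 with CTLs without passing and at 1.00 with the antibody, a call that held. The sums of these 7 ran from 19.9 to 21 in untreated tumours, 23.2 to 32.3 with CTLs, 18.4 to 20.3 with the antibody and 20.8 to 24.8 with IgG. Their part in the type IV and type XV values was not tested.

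With CTLs 10.1% of all genes rose and 21.4% fell, and with the antibody 6.61% rose and 5.94% fell. Of 5 measured fibroblast markers, among 10, 2 rose with CTLs and 0 passed with the antibody. Fap, Dpt and Tcf21 were not well above background on any array, and the sums ran from 1.85 to 2.89 in untreated tumours, 2.88 to 3.94 with CTLs, 1.41 to 1.54 with the antibody and 1.28 to 3.04 with IgG. Of 4 measured keratinocyte markers, among 6, 3 rose with CTLs, with sums of 0.418 to 0.745 in untreated tumours and 0.958 to 1.46 with CTLs, 0.337 to 0.463 with the antibody and 0.431 to 0.601 with IgG. Their part in the type I, III and VII values was not tested. For cartilage and bone, Matn1 passed the background test on 0 of 14 arrays and Comp was not measured. Of 5 measured markers among 7, 2 rose and 1 fell with CTLs, and 1 rose with the antibody. Sox9, a transcription factor of cartilage cells, and Bglap, the bone protein osteocalcin, rose with CTLs by 1.65 ± 0.52 and 1.22 ± 0.24. Both calls held with normexp. Matn3, well above background on 4 arrays, was the marker that fell, and it stood at 0.44 with normexp. The summed level of the list ran from 0.353 to 0.505 in untreated tumours and 0.739 to 0.855 with CTLs. It ran from 0.419 to 0.631 with the antibody and 0.640 to 1.25 with IgG. The part of these markers in the values of the cartilage chains was not tested. All 5 measured T cell and all 6 macrophage markers rose with CTLs, beside 10.1% higher among all genes. Cd8a and Cd3g of the T cell list and Itgam of the macrophage list were well above background on 0 untreated arrays. They passed the filter only through arms given CTLs, so their own calls are not read as a result.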

How the data were processed

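The submitters' processing notes name Agilent Feature Extraction 9.5 for the scanned images. The deposited scanner files give spot intensity on a linear scale with probe positions in build mm8. The authors also deposited a log2 table, which equals the log2 processed signal minus a constant per array (r = 1). Here log2 of the processed signal minus the array's 75th percentile was used, spots of a probe were averaged, and control and outlier spots were left out. Probes well above background on at least 3 arrays were kept, 1 per gene.

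limma 3.58.1 in R 4.3.3 was fitted on all 14 arrays with arm and day as terms, CTL day 1 having its own level (6 residual degrees of freedom). The p-values measure the spread between days of pooled tumours, not between mice. Day equals slide and pairs the arms by shared slide; over 18 same-day pairs the deviations correlated with a median r of 0.130. Genes named with values are the collagens that passed, the chains of types I, III, IV, V, VI, XV and XVIII, and genes of the pathway and marker lists. Members and lists were chosen with earlier results of these data known. The scripts were tested on simulated data. Proteins were not analysed here, nor were chains filed under other names.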

Additional observations from a re-analysis of the deposited data

Results flagged for a closer look

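In untreated tumours the day 1 level of Col5a1, at -1.66, lay far below the remaining 3, which ran from -1.20 to -1.15. In CTL tumours the day 3 level of Col5a2, at -4.98, lay far below the remaining 3, which ran from -3.87 to -3.76. Of 60 sets of 4 arrays tested for an isolated value, 2 were marked, and chance alone would mark about 3.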

How the results depend on the processing

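Counts of collagens passing limma were 12 with CTLs, 7 with the antibody against IgG and 14 with IgG against untreated tumours. They became 5, 4 and 6 with normexp background correction, 5, 4 and 8 when only the arms compared were fitted, and 7, 0 and 9 with 1 CTL effect for all 4 days. Leaving out each day in turn gave 3 to 12, 0 to 5 and 5 to 10, the lowest without day 5, without days 3 or 5, and without day 3. Without the replicate block (no day term) the counts were 11, 7 and 11, and the values from quantile normalization were 12, 6 and 15. Most of these counts are given without those of all genes under the same setting. Where both are given above, calls over all genes fell as well. The collagen counts alone do not show whether collagens lost calls more often than other genes. The remaining 3 comparisons gave 0 under every alternative run; the interaction could not be run without the day term or with 1 CTL effect. With normexp, which moved the median of all genes with CTLs from -0.10 to 0.08, the collagen median turned to 0.22, Col5a1 to 0.011, Col13a1 to 0.47, Col14a1 to 0.40, Col15a1 to 0.22 and Col20a1 to 0.22; the cause was not tested. Only Col4a1 and Col4a2, of the 12 collagens that fell with CTLs, kept the call in all 12 alternatives. Dim probes and 3 days per arm limit the precision.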
